A study of Mus musculus with 12 samples.

Results

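The subject is the set of KLF4 peaks in mouse induced pluripotent stem cells (iPSCs) at which the deposited lists give no acetylation of histone H3 at lysine 27 (H3K27ac) in either of the studied cells. The members were thus selected on overlap with measured H3K27ac. A KLF4 peak was a member when it overlapped, by 1 base or more, no iPSC H3K27ac peak and no 10 kb bin of embryonic stem cell (ESC) chromatin that carried an H3K27ac value at 24 h or at 0 h. By this rule 6982 of 21563 KLF4 peaks were members, which is 32.4% (exact 95% interval 31.8 to 33.0%). For the ESCs this means without a listed value, since most members lay in bins on neither ESC list. The study measured KLF4 and H3K27ac in iPSCs, and H3K27ac in ESCs before and after loss of KLF factors, by chromatin immunoprecipitation and sequencing (ChIP-seq) of 2 replicates per ChIP group, beside input libraries. The iPSCs are mouse pluripotent cells reached by reprogramming, and the labels give no edit for them. The ESCs are V6.5, a mouse line grown on feeder cells and labelled as kept with 2i, a pair of kinase inhibitors. They carried a Cas9 that doxycycline switches on, with guides to KLF4 by itself or to KLF2, KLF4 and KLF5 together, and clonal populations were picked. At 24 h doxycycline had been given for that time, and at 0 h it had not. The sample names call both ESC groups TKO, the 0 h group also WT and the 24 h group also KLF4 KO. Which guides the ESCs held is thus not settled by the labels, and the ESC values are those of picked clones. Each ChIP group has 1 deposited list for its replicates together, so no value below has a replicate error, and no test between groups could be made. The intervals below cover counting error only, and peaks of 1 list are not replicates of a condition.

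KLF4 is a zinc finger transcription factor that binds GC-rich and CACCC-like DNA and belongs to the set of factors used to reprogramme somatic cells. In pluripotent cells it is known for binding enhancers and promoters of genes such as Esrrb and Nanog, many of them marked by H3K27ac, a modification laid down by the acetyltransferases p300 and CBP at active regulatory DNA. A transcription factor can also sit on DNA that lacks this mark, for example at promoters held by Polycomb or DNA methylation, at poised elements, or at repeats.

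The promoters of genes from the examined gene lists that a member overlaps show the DNA in question. The sequences below are the 250 bases before the annotated transcription start, from RefSeq on GRCm38.p6, the assembly that mm10 holds, read in the direction of the gene. Capitals mark GGGTG and GGGNGTGG, short motifs of the kind KLF factors bind, or their reverse complements (CACCC and CCACNCCC), and 1 stretch can match both. The first 3 are the list genes with the widest member at their promoter window: Cbx8, a Polycomb chromobox protein (chr11:119040914-119041163, minus strand, member of 694 bp), Slc25a24, a mitochondrial carrier (chr3:109122899-109123148, plus strand, 652 bp), and Cldn7, an epithelial tight junction protein (chr11:69965171-69965420, plus strand, 541 bp). The remaining sequences are of germline genes: Brdt, a bromodomain protein of spermatids (chr5:107330944-107331193, plus strand, 451 bp), and Mov10l1, a helicase of the piRNA pathway (chr15:88982744-88982993, plus strand, 207 bp).
Cbx8: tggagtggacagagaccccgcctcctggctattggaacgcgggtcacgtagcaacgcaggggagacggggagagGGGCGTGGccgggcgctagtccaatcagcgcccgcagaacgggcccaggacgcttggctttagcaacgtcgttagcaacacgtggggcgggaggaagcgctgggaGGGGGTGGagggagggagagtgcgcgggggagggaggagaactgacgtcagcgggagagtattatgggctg
Slc25a24: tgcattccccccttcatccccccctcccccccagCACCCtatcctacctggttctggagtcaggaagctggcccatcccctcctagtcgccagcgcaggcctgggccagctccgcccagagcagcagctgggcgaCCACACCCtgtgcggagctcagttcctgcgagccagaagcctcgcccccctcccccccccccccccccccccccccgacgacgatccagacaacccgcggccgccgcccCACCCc
Cldn7: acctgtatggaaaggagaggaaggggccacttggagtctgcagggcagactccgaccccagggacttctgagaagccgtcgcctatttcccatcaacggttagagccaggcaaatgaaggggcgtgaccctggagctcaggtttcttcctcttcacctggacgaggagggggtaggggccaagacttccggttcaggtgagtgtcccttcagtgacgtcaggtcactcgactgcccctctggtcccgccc
Brdt: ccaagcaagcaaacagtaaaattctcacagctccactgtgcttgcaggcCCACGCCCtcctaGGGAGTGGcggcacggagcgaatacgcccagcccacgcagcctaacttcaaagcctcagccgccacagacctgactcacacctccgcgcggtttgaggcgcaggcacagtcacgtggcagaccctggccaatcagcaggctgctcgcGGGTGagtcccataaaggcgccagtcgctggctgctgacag
Mov10l1: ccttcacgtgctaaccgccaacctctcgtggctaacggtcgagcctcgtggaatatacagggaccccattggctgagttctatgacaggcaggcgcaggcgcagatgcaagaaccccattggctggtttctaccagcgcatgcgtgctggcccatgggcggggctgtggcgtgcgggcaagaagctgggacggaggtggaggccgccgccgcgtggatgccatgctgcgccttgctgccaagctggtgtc
The member covers 215 of the 250 bases for Cbx8, all 250 for Slc25a24 and Brdt, 216 for Cldn7 and 186 for Mov10l1. Cbx8 and Brdt hold 2 matches to GGGNGTGG each, Slc25a24 holds 3 to GGGTG, and Cldn7 and Mov10l1 hold neither motif in these letters. The nearest iPSC H3K27ac peak lay 6394 bp from the Cbx8 member, 13817 bp from that of Cldn7, 42808 bp from that of Mov10l1, 104670 bp from that of Brdt and 210343 bp from that of Slc25a24. An ESC bin with a value lay 4255 bp from the Cldn7 member and 8358 bp from that of Cbx8 at both times. These 2 members thus sat in a bin next to a valued one. For the others the distance was 32807 bp or more.

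Members were narrow and lay away from gene ends more often than other KLF4 peaks. Their median width was 228.5 bp (95% interval 226 to 231 bp; quartiles 172 and 309 bp; range 74 to 1362 bp). The 4084 KLF4 peaks with an ESC value only had a median of 231 bp, the 1284 with an iPSC H3K27ac peak only 306.5 bp, and the 9213 with both 306 bp. A wide peak meets another list more easily, so the rule itself favours narrow members and these widths are a description. Gene position did not enter the rule. Within 2 kb of a protein-coding gene's start or end lay 28.1% of members (27.01 to 29.1%), against 34.0% of ESC only peaks (32.6 to 35.5%), 38.8% of iPSC only peaks (36.1 to 41.5%) and 43.3% of peaks with both (42.3 to 44.3%). The median distance to a gene end was 11679.5 bp for members, against 6131, 7993 and 4072 bp in the same 3 classes. Inside a protein-coding gene lay 55.8% of members, against 60.3%, 55.9% and 62.6%.

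**Figure D1:**
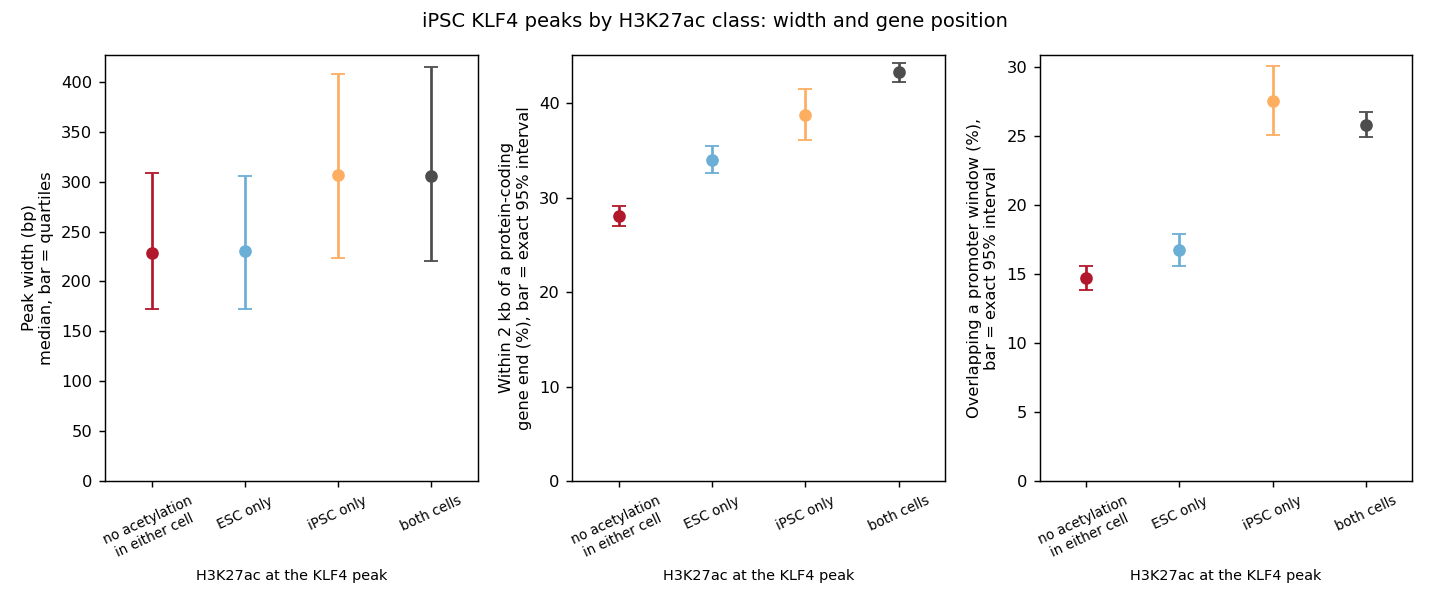
Width (left, median with quartiles), share within 2 kb of a protein-coding gene end (middle) and share that overlaps a promoter window (right) for KLF4 peaks without acetylation and for the 3 other classes of KLF4 peaks; bars in the middle and right panels are exact 95% intervals. Peaks without acetylation have the lowest share near a gene end (28.1%) and at a promoter window (14.7%), and about the width of ESC only peaks.

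A promoter window, 250 bases before to 50 bases after a start, was overlapped by 996 of 6771 members (14.7%, 13.9 to 15.6%), against 16.7% of ESC only, 27.6% of iPSC only and 25.8% of peaks with both. The 211 members on chromosome 18 are left out here, because no windows of that chromosome were used. The 1130 windows that members overlap, of 1046 genes, had a median GC content of 65.7% and a median CpG observed over expected ratio of 0.733. In the windows of ESC only, iPSC only and doubly acetylated peaks that ratio was 0.75, 0.82 and 0.83, and in windows without any KLF4 peak it was 0.31 at a GC content of 50.7%. GGGNGTGG on either strand was found in 37.3% of the members' windows (34.4 to 40.2%), against 37.1%, 30.2% and 32.6% in the other classes, 17.6% of all 32851 windows and 14.6% of windows without a KLF4 peak. GGGTG was found in 74.5% of the members' windows (71.9 to 77.0%), against 72.0%, 68.1%, 69.1% and 57.5% of all windows. Promoters under members thus held both motifs and GC at shares no lower than promoters under acetylated KLF4 peaks, while their CpG ratio was lower. A motif match is a description of the letters and shows no binding site.

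Most members lay more than 10 kb from acetylated chromatin. The median distance to the nearest iPSC H3K27ac peak was 31114.5 bp (30063 to 32455 bp, quartiles 12162.8 and 74451 bp), against 2819.5 bp for ESC only peaks. The rule keeps both classes off iPSC peaks, but it bars members from valued ESC bins and places ESC only peaks in them. It thus favours longer distances for members wherever both cells share acetylation, and these distances are a description. Of the members, 570 (8.16%) had an iPSC H3K27ac peak within 1 kb, 902 (12.9%) between 1 and 10 kb, 4277 (61.3%) between 10 and 100 kb and 1233 (17.7%) beyond 100 kb. Just outside an iPSC H3K27ac peak were 245 members within 100 bp, 1 of them touching it, and just inside the rule's other side 326 iPSC only peaks shared 100 bp or less with such a peak. To a valued ESC bin the median distance was 46863.5 bp at 24 h and 43815.5 bp at 0 h, and 1599 members (22.9%) sat in a bin next to a valued one. The lowest value a valued ESC bin carried was 1.23 at 24 h and 1.24 at 0 h, and the other listed bins carried none.

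What is known of the ESC state differs among members. A bin that is not on an ESC list was not shown to lack acetylation, and 4928 members (70.6%) lay in bins listed at neither time. In bins listed without a value at both times lay 1364 members (19.5%), with 253 (3.62%) listed at 24 h only and 437 (6.26%) at 0 h only. Members in bins listed without a value at both times lay a median of 14721 bp from iPSC H3K27ac and 33.7% of them were near a gene end, against 45701.5 bp and 26.1% for those listed at neither time. Among the 245 members closest to an iPSC H3K27ac peak, under 100 bp away, 218 were listed at neither time.

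**Figure D2:**
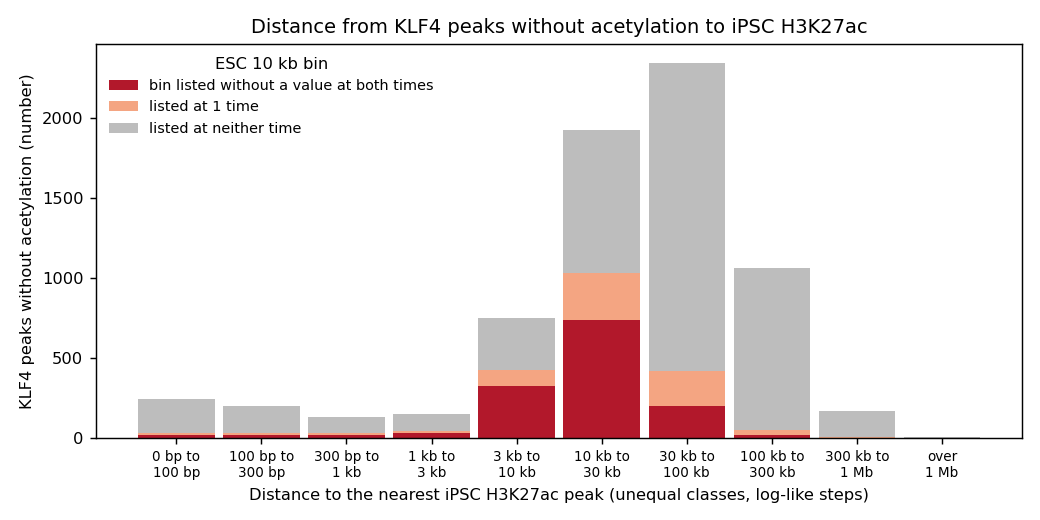
Number of KLF4 peaks without acetylation by distance to the nearest iPSC H3K27ac peak, in classes of growing width, coloured by whether their ESC 10 kb bin is listed without a value at both times, at 1 time or at neither. The fullest class, 30 to 100 kb, holds 2349 peaks, 1931 of them listed at neither time.

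By nearest protein-coding gene end within 100 kb, 6152 members were assigned to 4311 genes, and 6152 of 19843 assigned KLF4 peaks is 31.0%. A member was present at 42.5% of the 10148 genes with an assigned KLF4 peak, and at 2680 of the 4311 genes (62.2%) every assigned KLF4 peak was a member. Single members made up most of this, with 3137 genes holding 1 each. The genes with most members were Gas8 with 57 and Rhou with 32, which flank the array described below, then Gm40363 with 9. Col26a1, a collagen gene, and Eln, which encodes elastin, had 8 each and lie on chromosome 5, as do Castor2 (7) and Myl10 (7), a myosin light chain. Psd2 had 7, and Ctdspl, a small phosphatase, and Foxo1, a forkhead factor of the insulin pathway, had 6 each, as did 5 further genes (Hrh1, Igsf21, Itga9, Myrfl and Septin9). All 8 KLF4 peaks of Eln and all 6 of Ctdspl were members, and no iPSC H3K27ac peak or listed ESC bin lay within 10 kb of either gene.

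Germline, neuroectoderm, mesoderm and primitive endoderm genes, keratins, Hox genes, Wnt and BMP ligands and potassium channels held members at shares whose intervals lay above 31.0%. The intervals of naive pluripotency, KLF and SP, and Zfp genes lay below it. The lists were chosen with earlier results of these data known. Several peaks can share a gene and are counted as separate units, so the intervals describe the lists and test nothing. Counting a valued ESC bin next to a peak's own bin as acetylation put the share over all assigned KLF4 peaks at 23.3%. Under that setting keratins had 10 members of 23 (43.5%, 23.2 to 65.5%) and Wnt ligands 11 of 29 (37.9%, 20.7 to 57.7%), so that their intervals span the background, while the other 7 lists named first stayed above it. At the 20 naive pluripotency genes 7 of 96 KLF4 peaks were members (7.29%, exact interval 2.98 to 14.4%). These were single peaks at Dppa3, Esrrb, Gbx2 and Klf4 and at 3 other genes, and 6 of the 7 lay in listed ESC bins. Esrrb, an orphan nuclear receptor of the naive network, had 12 other KLF4 peaks. Of these, 10 had an iPSC H3K27ac peak and a valued ESC bin, and 2 had a valued ESC bin only. At the KLF and SP family, the relatives of KLF4 itself, 8 of 99 peaks were members (8.08%, 3.55 to 15.3%), among them those at Klf10, Klf3, Klf14 and Klf17. Klf14 and Klf17 had their member within 2 kb of a gene end. Zinc finger genes named Zfp had 90 of 392 (23.0%, 18.9 to 27.4%), with 5 members at Zfp423 and 4 at Zfp521. Polycomb and bivalent regulators had 9 of 46 (19.6%, 9.36 to 33.9%), 3 of them at Cbx8.

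At the germline list, genes of meiosis and of the piRNA pathway, 9 of 12 KLF4 peaks were members (75.0%, 42.8 to 94.5%). Of the 9, 7 lay within 2 kb of a gene end, against 1959 of 6152 over all assigned members. A promoter window was overlapped by a member at 5 germline genes, against 2 with another KLF4 peak there. Over all genes with promoter windows 1046 had a member there and 3624 another KLF4 peak. The germline counts are small and describe this list only. Brdt had 2 members, and Dazl, an RNA-binding protein of germ cells, Mael and Mov10l1, both of the piRNA pathway, had 1 each. The Dazl member lay 26 bp from an iPSC H3K27ac peak, while those of Mael and Mov10l1 lay 83822 and 42808 bp away. None of the 9 was in a listed ESC bin.

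Neuroectoderm genes had 18 members of 28 KLF4 peaks (64.3%, 44.1 to 81.4%), with 4 at Lhx5, 3 at Irx3 and 2 each at Dlx2 and Lhx2, homeobox genes of the developing brain. No KLF4 peak of another class was assigned to any of these 4 genes. Their members lay 50 to 81353 bp from iPSC H3K27ac at Irx3 and 11397 bp or more from it at the others. Mesoderm genes had 10 of 17 (58.8%, 32.9 to 81.6%), with 3 at Pax2, a factor of kidney development, 2 at Foxf1 and 1 each at Foxc1 and Hand1. Definitive endoderm genes had 8 of 18 (44.4%, 21.5 to 69.2%), with 2 at the chemokine receptor gene Cxcr4 and 1 each at Foxa2 and Foxa3, among others, so the interval spans the background. Primitive endoderm genes had 12 of 19 (63.2%, 38.4 to 83.7%), with 2 each at Col4a1, a basement membrane collagen, Lrp2, an endocytic receptor, and Pdgfra, and 1 at Dab2, an endocytic adaptor. The members at neuroectoderm, definitive endoderm and primitive endoderm genes were all in unlisted ESC bins.

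Keratins had 16 of 23 (69.6%, 47.1 to 86.8%), with 3 each at Krt18 and Krt19 and 2 each at Krt8 and Krt80. All 3 members of Krt19 lay within 2 kb of a gene end and 127985 to 135349 bp from iPSC H3K27ac, while those of Krt18 lay 7840 to 10191 bp from it. Trophectoderm genes, which share Krt18, Krt8 and Krt7 with the keratins, had 15 of 37 (40.5%, 24.8 to 57.9%), with 2 each at Ascl2, Gata2 and Gcm1. A member lay at the promoter window of 5 trophectoderm genes and another KLF4 peak at that of 1, against 1046 and 3624 over all genes with windows. Epidermis and epithelium genes had 19 of 53 (35.8%, 23.1 to 50.2%), with 4 at Epcam, an adhesion protein, 3 at Dsp, which encodes desmoplakin, and 2 at Cldn7. The 3 members at Krt19 are counted in this list as well as with the keratins. The shares of trophectoderm and epidermis genes do not stand clear of 31.0%. With a neighbouring valued ESC bin counted as acetylation, 3 of the 37 trophectoderm peaks were members (8.11%, 1.70 to 21.9%), below the 23.3% of that setting. Another setting went the other way. With only members in bins listed at both times counted, 7 of the 37 remained (18.9%, 7.96 to 35.2%), above the 6.62% of that setting.

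Among signalling genes, Wnt ligands had 18 of 29 (62.1%, 42.3 to 79.3%), with 4 at Wnt3a, 3 each at Wnt11 and Wnt7b and 2 at Wnt10b. Of the 18, 14 were in listed ESC bins, and the Wnt11 members lay 10 to 22747 bp from iPSC H3K27ac. BMP and GDF ligands had 12 of 19 (63.2%, 38.4 to 83.7%). Bmp4, a ligand of early lineage choice, had 4 members and no other KLF4 peak, 290203 to 353453 bp from iPSC H3K27ac, with 3 members at Bmp6, 2 at Bmp7 and 1 at Bmp8b. FGF ligands had 4 of 12 (33.3%), near the background. Hox genes had 11 of 19 (57.9%, 33.5 to 79.7%), with 2 each at Hoxa9 and Hoxd3 and 1 each at Hoxb3 and Hoxb9. Of the 11, 9 lay within 2 kb of a gene end, against 1959 of 6152 over all assigned members.

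Potassium channel genes had 57 members of 88 KLF4 peaks (64.8%, 53.9 to 74.7%) at 35 genes, with 3 each at Kcng1, Kcnh3 and Kcnn3, among others. A promoter window was overlapped by a member at 8 of these genes, against 1 with another KLF4 peak there. Over all genes with promoter windows these counts were 1046 and 3624. Glutamate and GABA receptors had 14 of 34 (41.2%), cadherins 11 of 23 (47.8%), protocadherins 4 of 10, blood and endothelium genes 16 of 39 (41.0%), formative and primed genes 16 of 38 (42.1%, 4 of them at the DNA methyltransferase gene Dnmt3a), fibroblast and smooth muscle genes 10 of 29 (34.5%), olfactory and vomeronasal receptors 33 of 89 (37.1%) and solute carriers 129 of 405 (31.9%). The intervals of all 8 span 31.0%. Cilia and axoneme genes had 62 of 77, but without the interval from Gas8 to Rhou the value was 5 of 20.

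**Figure D3:**
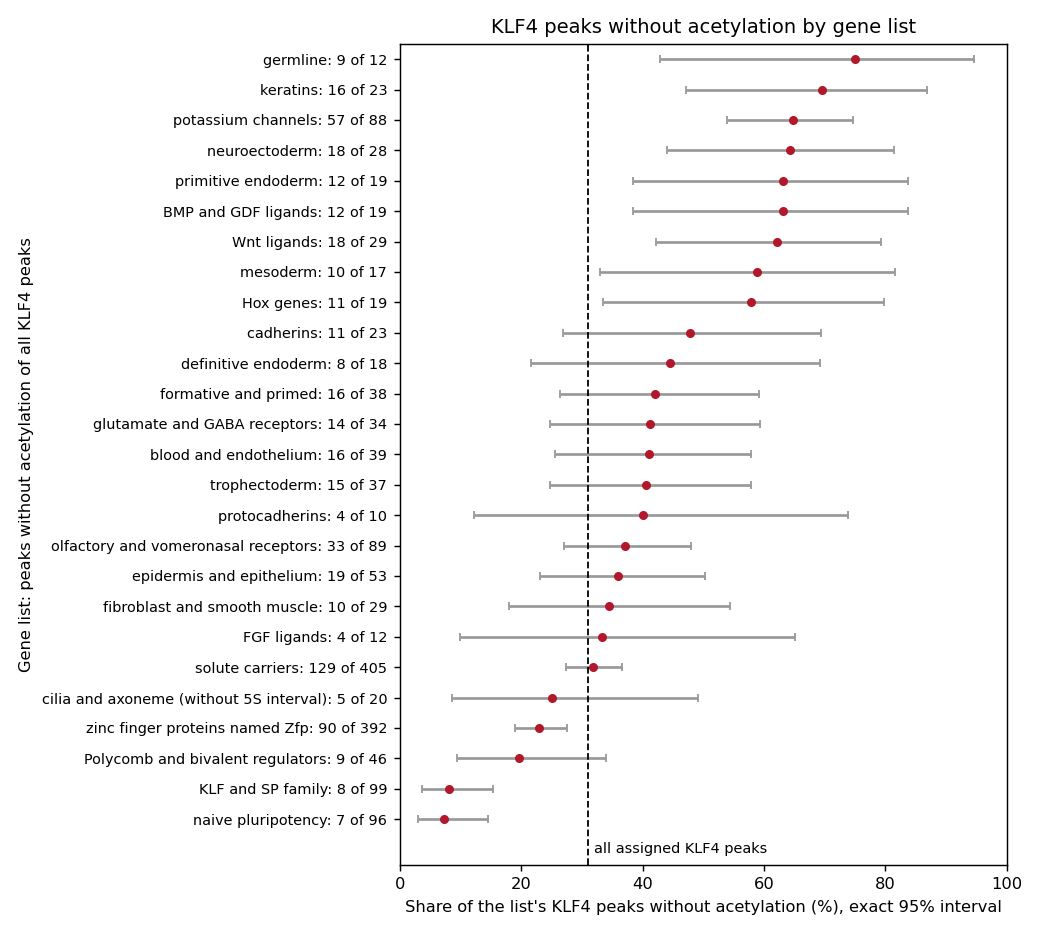
Share of each gene list's assigned KLF4 peaks that are without acetylation, with the exact 95% interval, and the number of such peaks of all KLF4 peaks beside the name; the dashed line is the 31.0% over all assigned KLF4 peaks, and the cilia and axoneme list, which holds Gas8, is drawn without the interval from Gas8 to Rhou. Germline, keratin, potassium channel and neuroectoderm genes stand highest (64.3 to 75.0%), and naive pluripotency and KLF and SP genes lowest (7.29 and 8.08%).

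Most members had no other member within 10 kb. Another member lay within 10 kb of 1559 of them (22.3%, 21.4 to 23.3%), while 5423 had none. There were 532 pairs, 104 groups of 3 and 14 groups of 4. KLF4 peaks of other classes were not counted as neighbours. The same share was not computed over all KLF4 peaks, so it is not shown to be particular to members. One group stood apart with 88 members, on chromosome 8 between Gas8, a component of the axonemal dynein regulatory complex, and Rhou. All 88 KLF4 peaks of this interval were members. The space between these genes holds the array of 5S ribosomal RNA genes, with 48 entries annotated as rRNA and 3 as pseudogenes on GRCm38.p6 from 123538784 to 123623745, each 109 to 121 bases long. The 5S RNA is the small rRNA that RNA polymerase III makes for the large ribosomal subunit, and its genes stand in tandem repeats. The entries followed each other at a median step of 1698 bp, with a range of 1665 to 1727 bp.

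The members kept to the repeat. At the array lay 86 of the 88, and 44 members overlapped 44 of the 51 entries. No repeat was without a member centre, with 1 in 18 repeats, 2 in 32 and 3 in 1. Laid over each other, the 50 complete repeats were covered in 2 blocks. At the lower-coordinate end of the 5S entry 39.4% of repeats were covered, and the first block reached 98.0% of repeats at 180 bp from that end. Coverage was 50.7% at 500 bp, and the second block reached 86.0% at 780 bp. From 1040 to 1440 bp no repeat was covered by a member, and coverage was 33.4% at 1680 bp, just before the next entry, so the first block began ahead of the entry in part of the repeats. Array members had a median width of 402.5 bp (126 to 1056 bp), against 227 bp for the other members, and 37.2% of them were above 484.95 bp, the 95th percentile of all members.

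**Figure D4:**
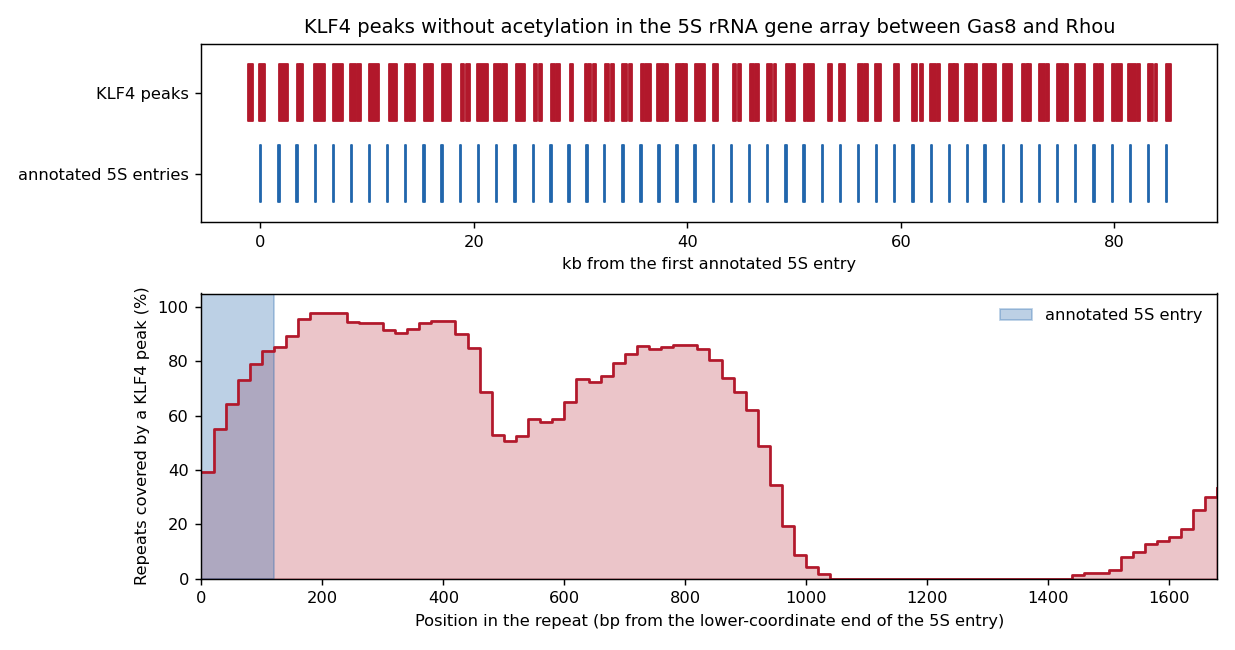
Top, KLF4 peaks without acetylation (red) and annotated 5S entries (blue) along the array, in kb from the first entry. Bottom, percent of the 50 complete repeats covered by such a peak at each position of the repeat; coverage has 2 blocks, highest at 180 and 780 bp, and is 0 from 1040 to 1440 bp.

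No iPSC H3K27ac peak lay between Gas8 and Rhou, the nearest being 59114 to 120703 bp from the array members. None of the 10 ESC bins over the array was listed at 24 h or at 0 h. Of the 28 5S entries annotated elsewhere, 11 as rRNA and 17 as pseudogenes on 15 chromosomes, none was within 500 bp of a KLF4 peak of any class. The same share was not computed for other sites of the genome, so this does not show that KLF4 peaks avoid those entries. Copies of a repeat are near-identical, so a read from one copy can be placed on another, and the sources used here do not say how multiply mapped reads were handled. The part of read placement in the array's peaks was not tested, and the peaks give positions in the assembled repeats, not independent binding events.

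The 2 next largest groups, of 10 and 9 members, lay side by side on chromosome 6 at and beside Rn4.5s, an entry annotated as 4.5S ribosomal RNA. In the mouse the genes of this short RNA stand in tandem repeats. One member (47654834 to 47655014) overlapped this single annotated entry, and 19 members lay from 47651038 to 47778198. This locus differed from the 5S array, since 14 iPSC H3K27ac peaks and 14 acetylated KLF4 peaks lay among its 33 KLF4 peaks, and its members were 74 to 4065 bp from H3K27ac. No ESC bin there was listed. The median step between member centres was 4186.25 bp, and 5 of 18 steps were between 4000 and 4400 bp. Gm40363, which follows Gas8 and Rhou in number of members, lies in this span. The same limit on repeats holds here.

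In 4 groups there were 5 members. At Adamtsl5 and Plk5 on chromosome 10 (80343077 to 80356471) both ESC bins were listed without a value at both times and iPSC H3K27ac was 13361 to 26665 bp away. Near the vomeronasal receptor genes Vmn1r238 on chromosome 18 (3113397 to 3119999) and Vmn1r2 on chromosome 4 (3165152 to 3177059), and at the long noncoding RNA gene 9530059O14Rik on chromosome 9 (122569029 to 122572529, nearest coding gene Topaz1), no bin was listed and H3K27ac was at least 81532 bp away.

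Across chromosomes the members' share ran from 25.5% of KLF4 peaks on chromosome 7 (23.3 to 27.8%) to 40.1% on chromosome 8 (37.4 to 42.9%), with 10 of 19 peaks on Y. Without the 5S array chromosome 8 stood at 35.6%, below chromosome 5 (36.7%) and chromosome 2 (36.5%). The array made up 17.4% of the members of chromosome 8 and 1.23% of all members. On X 88 of 312 KLF4 peaks were members. The ESC lists hold no bin on Y, so the 10 members there met the rule through the iPSC list alone.

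**Figure D5:**
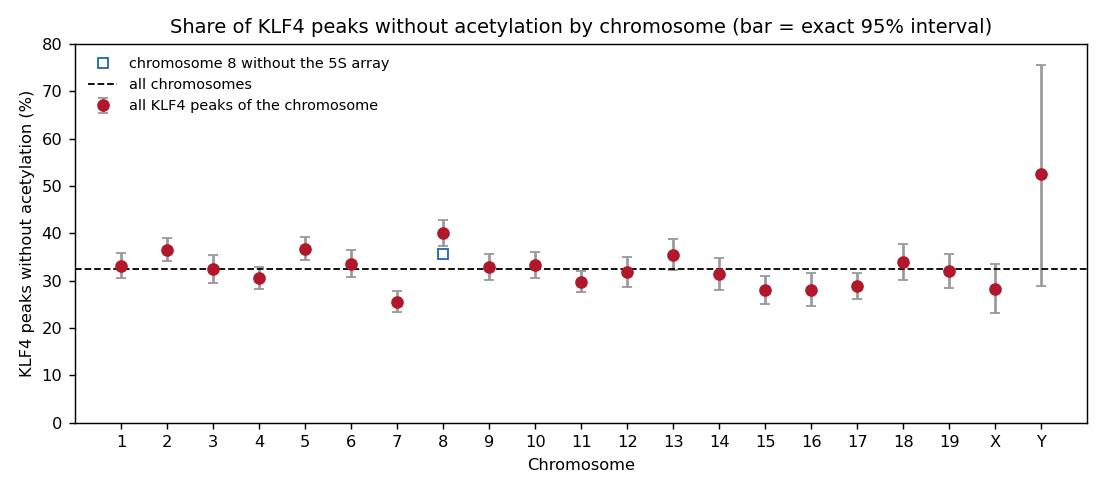
Percent of each chromosome's KLF4 peaks that are without acetylation, with exact 95% intervals; the dashed line is 32.4% over all chromosomes and the open square is chromosome 8 without the 5S array (35.6%). Chromosome 7 is lowest (25.5%) and chromosome 8 highest among the autosomes (40.1%), while Y rests on 19 peaks.

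Of the 10 widest members, 5 were in the 5S array, and others lay at Jade2 (985 bp), Nav2 (932 bp), Lrrc3 (930 bp, at a gene end) and Cacna1h (919 bp), these 4 at 49319 bp or more from iPSC H3K27ac. Farthest from iPSC H3K27ac were members nearest to Gm20877 (4719014 bp) and Gm20918 (1890602 bp) on Y, Pcdh19 on X (1212792 bp), Fstl5 on chromosome 3 (1082810 bp) and Rbfox1 on chromosome 16 (899485 bp). These were 112 to 266 bp wide, and all lay in unlisted ESC bins. Pcdh19 is a protocadherin, Fstl5 a follistatin-like protein and Rbfox1 a splicing factor of neurons and muscle.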

How the data were processed

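The analysis used 4 lists: iPSC KLF4 peaks (21563) and iPSC H3K27ac peaks (55466), as intervals without height, and ESC H3K27ac bins of 10 kb at 24 h (47307, of which 25611 carry a value) and 0 h (49460, 26812 with a value). The ESC signal values, and a whole-number score per bin, are as the authors deposited them, and no source used here gives their normalisation. The build mm10 and the tools MACS2, bedtools, SAMtools and Bowtie2 were used per the submitters' processing notes; no source used here gives their roles, the joining of replicates or the treatment of multiply mapped reads. Read depth is unknown, since the lists hold no counts; each list pools 2 replicates, and the input libraries (12 samples in all with the ChIP libraries) have no list. A bin counted as valued when its signal was above 1e-300.

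Overlap (1 base or more), gaps and clusters (10 kb) were computed in Python 3 with numpy, pandas and scipy, and tested on simulated intervals. Genes and promoter sequences are from RefSeq GRCm38.p6. The gene table gives no strand, so both gene ends were used. Intervals are exact (Clopper-Pearson) 95% for shares and from order statistics for medians; no test was run. Named genes are the 10 with most members, up to 4 per list (ties alphabetical), those at the 10 widest and 5 farthest members and at the largest clusters; a few that this rule selects, and 1 list, are not reported here. The members, the 27 gene lists and families were chosen with earlier results of these data known. Overlap with rRNA and other small RNA genes, distances from starts and the germline promoters shown were added after the data were seen.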

Additional observations from a re-analysis of the deposited data

How the results depend on the processing

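No paired analysis was possible because each list pools its 2 replicates, and for the same reason leaving out a replicate could not be done. Without the interval from Gas8 to Rhou 21.3% of members were in clusters and members were 32.9% of the KLF4 peaks at all list genes, against 22.3% and 36.3% as reported. Leaving out the 4.5S span too, an alternative chosen after seeing the data, gave 21.1% and 32.9%. Counting an iPSC H3K27ac peak within 1 kb as acetylation moved the median distance to 35807 bp, the share in a listed ESC bin to 30.7% and the list share to 34.0%. Counting a neighbouring valued ESC bin moved these to 42860 bp, 17.2% and 28.1%. Keeping only members in bins listed at both times left 1364, with 33.7% near a gene end, a distance of 14721 bp, 24.4% in clusters and a list share of 6.35%; the share in a listed bin is then fixed. Merging KLF4 peaks within 1 kb gave 26.99% near a gene end, a width of 232 bp and 13.8% in clusters. KLF4 peaks at or above the median width gave 2659 members, 36.7% near a gene end, a width of 336 bp, 14.8% in clusters and a list share of 31.9%. With iPSC H3K27ac peaks at or above their median width the distance was 50095 bp. The share near a gene end was 37.0% at 5 kb, 38.6% with all annotated genes and 21.1% with starts in place of ends, the last added after seeing the data. Clusters held 16.7% at 5 kb and 35.1% at 25 kb, and assignment within a gene or 10 kb of it gave a list share of 32.4%. The cause of these shifts was not tested, beyond the fewer or other peaks each setting keeps. Of 270 values of single gene lists under the alternatives, 221 stayed within the interval reported and 49 did not. The share over all assigned KLF4 peaks was 23.3% with a neighbouring valued ESC bin counted, where the intervals of keratins (43.5%) and Wnt ligands (37.9%) no longer lay above it; against 31.0% as reported, those of mesoderm (lower limit 27.8%), primitive endoderm (28.9%), Hox (24.4%) and BMP and GDF genes (28.9%) do not either. In that setting trophectoderm (8.11%) and Polycomb genes (8.70%) lay below 23.3%, fibroblast and smooth muscle genes had 17.2%, and formative and primed (39.5%) and olfactory and vomeronasal receptor genes (34.8%) stood above it. Among KLF4 peaks at or above the median width the share over all was 23.9%, and keratins (44.4%), Hox genes (36.4%) and BMP and GDF ligands (45.5%) no longer stood above it. The same held for mesoderm genes (50.0%) with assignment within 50 kb, while cadherins (64.7%) stood above the background with assignment within a gene or 10 kb of it. Naive pluripotency genes ranged from 1.04 to 8.33%. With only members in bins listed at both times counted, the share over all assigned peaks was 6.62%. The base stayed all assigned KLF4 peaks of a list, those with acetylation and in unlisted bins included. These shares thus also follow how often a list's bins are listed, and are not shares among listed bins. Of the 9 lists first named as above the background, potassium channels (14.8%) alone stayed above 6.62%. Trophectoderm genes (18.9%), whose interval spans the background as reported, also stood above it. Naive pluripotency (5.21%) and KLF and SP genes (3.03%) no longer lay below it. No member in such bins was at a germline, neuroectoderm or primitive endoderm gene. The shares reported for those lists thus rest on bins the ESC lists do not hold. The lists carry no depth, so weak acetylation below a caller's threshold cannot be told apart from none.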

Other observations

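Apart from rRNA, few members lay at genes of small RNAs. A tRNA gene was within 500 bp of 10 members (0.143%, 0.0687 to 0.263%), against 6 ESC only peaks (0.147%), 6 iPSC only peaks (0.467%) and 37 peaks with both (0.402%). Small nuclear RNA genes were within 500 bp of 4 members (0.0573%), against 0, 7 (0.545%) and 19 (0.206%) peaks of those classes. On chromosome 1 members of 257 and 666 bp overlapped 3 tRNA genes in a row, n-TEctc8, n-TGtcc5 and n-TDgtc7, with iPSC H3K27ac 7100 and 7652 bp away, and on chromosome 7 single members overlapped n-TEttc7 and n-TLtag1. A microRNA gene was within 500 bp of 22 members (0.315%), a share near those of ESC only (0.392%), iPSC only (0.389%) and doubly acetylated peaks (0.380%). Members overlapped 10 microRNA genes. Among them were Mir124a-3, which encodes the neuronal miR-124 (229 bp, 25830 bp from iPSC H3K27ac), Mir212 (546 bp, 4817 bp), Mir574 (491 bp, 86838 bp) and Mir378a (134 bp, 145862 bp). These 4 were chosen after their values were seen.

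The listed ESC bins also carry a whole number whose meaning the sources used here do not give. Its median was 1 in members' bins at both times, the same as in all listed bins without a value, against 4 in ESC only bins at both times and, in bins of peaks with both, 5 at 24 h and 6 at 0 h.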
